A study of Mus musculus with 6 samples.

Results

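The genes described here encode MHC class II antigen presentation in group 3 innate lymphoid cells (ILC3s), tissue lymphocytes of the gut. They were taken by symbol from the deposited table: the class II chain genes H2-Aa, H2-Ab1 and H2-Eb1, the peptide exchange genes H2-DMa, H2-DMb1, H2-DMb2 and H2-Oa, the invariant chain gene Cd74, and the transactivator gene Ciita. All 9 were present among 33157 rows and all 9 passed the filter on low counts. The cells were sorted from wild-type mouse small intestine by surface markers, and the cultures lasted 4 h. The group with insulin-like growth factor 1 (IGF-1) received IGF-1 at 200 ng/mL together with 20 ng/mL of interferon-γ (IFN-γ). The control group received IFN-γ at 20 ng/mL alone, so every culture held IFN-γ and no culture without it is part of the comparison. Each group has 3 libraries. The mouse strain, age and sex are not given in the labels, and neither is the origin of the 3 libraries of a group (1 mouse or culture, or several). The p-values therefore rest on a spread between libraries that may be technical.

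MHC class II molecules are pairs of an α and a β chain that show peptides to CD4 T cells. In the endoplasmic reticulum the invariant chain CD74 occupies the groove. In endosomes proteases cut CD74 down to a short remnant, which H2-M (H2-DMa with a β chain from H2-DMb1 or H2-DMb2) exchanges for a peptide, while H2-O restrains H2-M in some cells. Transcription of these genes depends on CIITA, a co-activator that binds no DNA itself and docks on factors at the X and Y boxes of class II promoters. IFN-γ induces Ciita, in part through the transcription factor IRF1. ILC3s of the intestine are known to carry MHC class II and to restrain CD4 T cells specific for commensal bacteria.

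RefSeq promoter windows were found by symbol for 6 of the 9 genes (build GRCm38.p6). They are shown because the X and Y boxes are the letters through which CIITA acts on all the class II genes at once. Within the 250 bases upstream of the annotated start, both strands were searched for a Y box core (TGATTGG) and for 2 forms of the X2 element of the X box (TGACGTCA and GATGATGC). These letters were chosen after the windows had been read. Each stretch below has 54 bases, 5′ to 3′ on the gene's strand, with matches in capitals.
H2-Aa, chr17:34287864-34287917, minus strand: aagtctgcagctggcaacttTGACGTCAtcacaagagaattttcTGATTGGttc
H2-Eb1, chr17:34305762-34305815, plus strand: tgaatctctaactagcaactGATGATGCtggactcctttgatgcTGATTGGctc
H2-DMb1, chr17:34153084-34153137, plus strand: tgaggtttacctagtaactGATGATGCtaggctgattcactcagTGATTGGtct
H2-DMb2, chr17:34145113-34145166, plus strand: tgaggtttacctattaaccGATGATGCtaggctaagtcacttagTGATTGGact
H2-Oa, chr17:34092290-34092343, plus strand: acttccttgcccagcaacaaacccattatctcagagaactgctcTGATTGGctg

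An X2 form stood 16 bases before the Y box core in H2-Aa and H2-Eb1, and 17 bases before it in H2-DMb1 and H2-DMb2. H2-Oa had the Y box core alone, and neither of the 2 H2-DMa windows held any of the 3 motifs in these letters. The Y box core began 45 bases before the start in H2-Oa, 50 in H2-Aa, 61 in H2-Eb1, 63 in H2-DMb1 and 92 in H2-DMb2. Among 32851 promoter windows of the same length, 7.23% held the Y box core, 1.55% TGACGTCA and 0.575% GATGATGC. A Y box core within 60 bases after either X2 form was present in 19 windows, those of 18 genes, and 4 of the 18 genes were H2-Aa, H2-Eb1, H2-DMb1 and H2-DMb2. The motifs do not overlap each other in the printed stretches. A match is a description of letters, not a measured binding site.

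**Figure D1:**
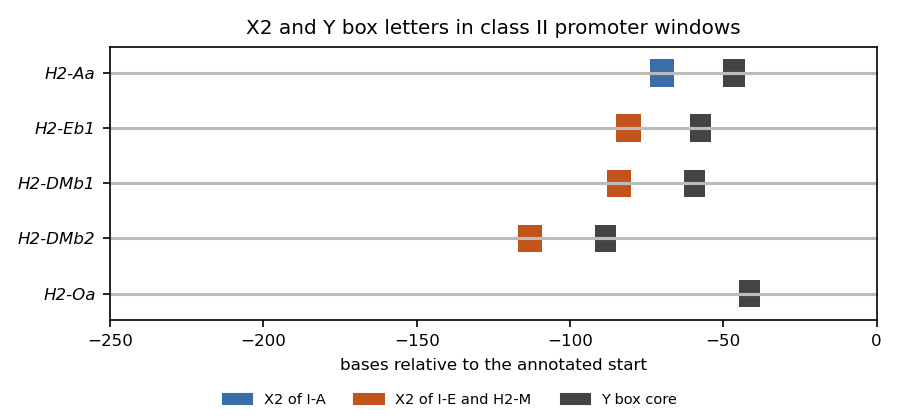
Positions of the X2 forms and the Y box core in 5 class II promoter windows, in bases relative to the annotated start (horizontal axis, start at 0). The X2 form lies 16 or 17 bases before the Y box core in the 4 genes that have both, and H2-Oa has the Y box core alone.

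The libraries held 32573713 to 39206449 counts, and the 9 genes together took 0.0533% to 0.0904% of them. Levels below are CPM, the reads of a gene relative to the size of its library, adjusted with TMM factors. Means are given ± SD with n = 3 libraries per group. A positive log2 fold change means a higher level with IGF-1. Adjusted p-values come from edgeR's quasi-likelihood test with Benjamini-Hochberg adjustment over 13483 genes.

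None of the 9 genes passed an adjusted p under 0.05 by edgeR, where 0.497% of all genes did. DESeq2, which called 456 of the 13483 genes, and limma-voom, which called 96, also called 0 of the 9. At an unadjusted p under 0.05 the count was 1 of 9, the gene being Ciita in the lower direction, beside 11.8% of all genes in either direction and 6.24% lower. The median log2 fold change of the 9 genes was -0.23, with 6 negative and 3 positive, beside -0.01 over all genes tested, of which 51.3% were negative. In 2 of the 9, Ciita and H2-DMb1, every library with IGF-1 lay below every control library, beside 9.17% of all genes. In 0 of the 9 did every IGF-1 library lie above every control library, beside 8.81% of all genes. In bulk RNA fewer cells of a type and less RNA per cell cannot be told apart.

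Ciita had the smallest p of the 9. It was at 12.5, 14.1 and 18.6 CPM in the libraries with IGF-1 (replicates 1 to 3), against 21.0, 26.7 and 23.3 CPM in control libraries. The groups did not overlap, and IGF-1 replicate 3 lay nearest to the controls. In raw counts these were 487, 487 and 696 with IGF-1 and 781, 894 and 836 in controls. The mean was 15.1 ± 3.14 CPM with IGF-1 and 23.7 ± 2.89 CPM in controls, a log2 fold change of -0.65 (SE 0.21, 95% interval -1.12 to -0.18) or 0.638-fold. The adjusted p was 0.243, so the difference did not pass over all genes. Leaving out a library gave log2 fold changes from -0.83 to -0.53 and adjusted p from 0.170 to 0.574, and DESeq2 gave an adjusted p of 0.104. The Ciita gene is transcribed from several promoters used by different cells, and the table gives 1 value per gene, so promoter use is not resolved here.

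**Figure D2:**
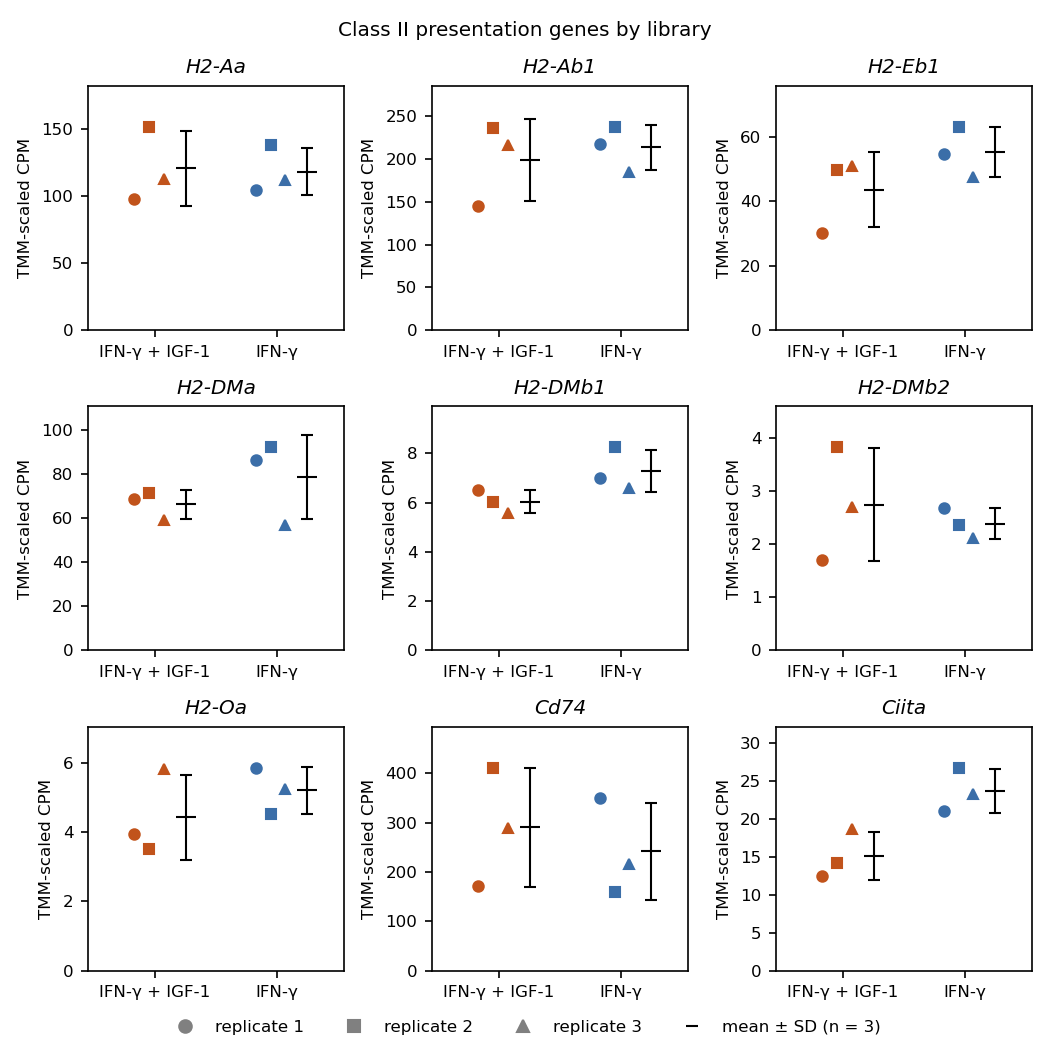
TMM-scaled CPM of each of the 9 genes (vertical axes, starting at 0) in the 3 libraries with IFN-γ plus IGF-1 and the 3 with IFN-γ alone; symbols mark replicates and black bars the mean ± SD. Ciita was 12.5 to 18.6 CPM with IGF-1 and 21.0 to 26.7 CPM in controls with no overlap, while the H2-Aa, H2-Ab1 and Cd74 groups overlap.

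The genes for the 2 chains of the class II molecule I-A had overlapping levels in the 2 groups. H2-Ab1, the I-A β chain, was at 145, 237 and 216 CPM with IGF-1, against 218, 238 and 185 CPM in controls. IGF-1 replicate 1 was the lowest of the 6 libraries, and both other IGF-1 libraries lay within the control range. The log2 fold change was -0.10 (SE 0.18, 95% interval -0.50 to 0.30, adjusted p = 0.886). H2-Aa, the I-A α chain, was at 97.9, 152 and 113 CPM with IGF-1, against 105, 138 and 112 CPM in controls. The groups overlapped, with both the highest and the lowest library in the IGF-1 group. Its log2 fold change was 0.03 (SE 0.18, 95% interval -0.36 to 0.42, adjusted p = 0.971). The intervals leave room for a change of either chain in either direction, up to their bounds.

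H2-Eb1 encodes the β chain of I-E, the other mouse class II molecule. It was at 30.3, 49.7 and 51.0 CPM with IGF-1, against 54.8, 63.3 and 47.7 CPM in controls. The groups overlapped because control replicate 3 lay below IGF-1 replicates 2 and 3. Its log2 fold change was -0.34 (SE 0.21, 95% interval -0.79 to 0.11, adjusted p = 0.573). The partner of this chain is encoded by H2-Ea, which had 0 counts over the IGF-1 libraries and 1 count over the control libraries. A deletion at the H2-Ea promoter is known to silence I-E in mice of the b haplotype, such as C57BL/6. The class II β gene H2-Eb2 had 5 counts in all, each in IGF-1 replicate 3.

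Counts of H2-Eb1 and H2-Ab1 can be set against each other within a library, which removes library scaling. H2-Eb1 had 0.209, 0.210 and 0.236 counts per H2-Ab1 count with IGF-1, against 0.251, 0.266 and 0.258 in controls. This ratio, chosen after its values were seen and given without a test, did not overlap between groups. Ciita had 0.0865, 0.0597 and 0.0860 counts per H2-Ab1 count with IGF-1, against 0.0962, 0.112 and 0.126 in controls, again with no overlap and without a test. Because Ciita levels themselves did not overlap, its ratio is not a separate result. The share of all gene pairs whose ratio does not overlap between groups was not computed. For H2-Aa per H2-Ab1 the groups overlapped, with 0.675, 0.642 and 0.521 with IGF-1 and 0.480, 0.580 and 0.605 in controls. The summed level of the 3 chain genes was 273, 438 and 380 CPM with IGF-1, against 377, 439 and 345 CPM in controls.

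Cd74, the invariant chain gene, had the highest relative spread of the 9 genes in both groups. It was at 171, 411 and 289 CPM with IGF-1, against 350, 159.9 and 216 CPM in controls. High and low libraries occurred in both groups, IGF-1 replicate 2 being highest and control replicate 2 lowest. The coefficient of variation was 41.3% with IGF-1 and 40.4% in controls, beside medians of 12.2% and 12.9% over all genes of at least 10 CPM. The log2 fold change was 0.26 (SE 0.32, 95% interval -0.45 to 0.98, adjusted p = 0.821). Without IGF-1 replicate 2 it was -0.08, and without IGF-1 replicate 1 it was 0.53. Cd74 had 1.18, 1.74 and 1.34 counts per H2-Ab1 count with IGF-1, against 1.61, 0.672 and 1.17 in controls. The ratio of invariant chain to class II chain counts was thus not constant across the 6 libraries, and it overlapped between groups.

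H2-DMa, the α chain of the peptide exchanger H2-M, was at 68.7, 71.6 and 59.1 CPM with IGF-1, against 86.7, 92.3 and 56.8 CPM in controls. Control replicate 3 was the lowest of all 6 libraries, while the other control libraries were the highest. The log2 fold change was -0.24 (SE 0.18, adjusted p = 0.670), and without control replicate 3 it was -0.43 (adjusted p = 0.559). H2-DMb1, a β chain of H2-M, was at 6.51, 6.03 and 5.58 CPM with IGF-1, against 7.01, 8.25 and 6.60 CPM in controls. These groups did not overlap, though IGF-1 replicate 1 and control replicate 3 nearly met, and the log2 fold change was -0.27 (SE 0.28, adjusted p = 0.783).

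H2-DMb2, the other β chain gene, was at 1.70, 3.83 and 2.70 CPM with IGF-1, against 2.69, 2.36 and 2.12 CPM in controls. The IGF-1 libraries lay on both sides of the controls (log2 fold change 0.20, SE 0.49, adjusted p = 0.925), and without IGF-1 replicate 2 the value was -0.12. H2-DMb2 had 0.261, 0.635 and 0.483 counts per H2-DMb1 count with IGF-1, against 0.383, 0.286 and 0.321 in controls. The principal transcripts of the 2 genes are near copies, with 93.9% identity over 1255 aligned bases. Of all 100-base stretches of the H2-DMb1 transcript 13.7% also occur in H2-DMb2, so how reads were shared between them is uncertain. Their promoter stretches printed above match at 48 of 54 bases.

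H2-Oa, the α chain of H2-O, was at 3.94, 3.51 and 5.82 CPM with IGF-1, against 5.85, 4.51 and 5.24 CPM in controls. The groups overlapped through IGF-1 replicate 3 (log2 fold change -0.23, SE 0.36, adjusted p = 0.861). Its partner H2-Ob had 0 counts over the IGF-1 libraries and 16 over the control libraries, 8 in each of control replicates 2 and 3, and was too low to test.

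**Figure D3:**
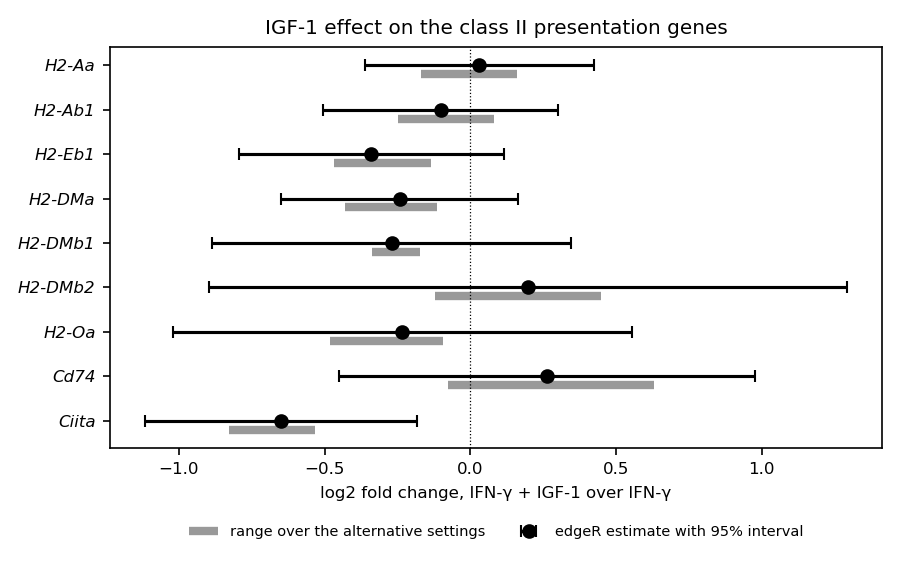
Log2 fold change with IGF-1 against control for each of the 9 genes (horizontal axis), with the 95% interval as a line and, in grey, the range over the alternative settings. The interval of Ciita (-1.12 to -0.18) is the one that does not include 0, and it is not adjusted for the number of genes tested.

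To compare levels between genes, CPM were divided by the length of each gene's principal transcript in kilobases. With IGF-1 the highest was Cd74 at 206 ± 85.2 CPM per kb, then H2-Ab1 at 164 ± 39.7 and H2-Aa at 107 ± 24.7. In controls H2-Ab1 was at 176 ± 22.0 CPM per kb, Cd74 at 172 ± 69.4 and H2-Aa at 105 ± 15.6. Within each IGF-1 library Cd74 was above H2-Ab1, at 121 and 120, 292 and 195, and 205 and 178 CPM per kb. In controls the order varied, at 248 and 180, 113 and 196, and 153.1 and 152.9 CPM per kb. H2-DMa was at 40.1 ± 3.95 CPM per kb with IGF-1 and 47.4 ± 11.5 in controls, and H2-Eb1 at 26.2 ± 6.94 and 33.1 ± 4.66 in the same order. The lowest were H2-DMb1 (4.30 ± 0.33 with IGF-1, 5.19 ± 0.61 in controls), H2-Oa (4.07 ± 1.13 and 4.78 ± 0.62), Ciita (2.51 ± 0.52 and 3.94 ± 0.48) and H2-DMb2 (1.93 ± 0.75 and 1.68 ± 0.20), all in CPM per kb. The order of H2-DMb1 and H2-Oa varied between the libraries of each group, as did that of Ciita and H2-DMb2 with IGF-1. As counted, the β chain genes of H2-M were far below the α chain gene per length. The handling of reads that match both β chain genes was not given, so the size of this gap is uncertain.

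The 9 genes did not vary together as 1 block across the libraries. Over the 6 libraries, log2 CPM of H2-Ab1 and H2-Eb1 had a Pearson r of 0.92 (Spearman rho 0.83), H2-Ab1 and H2-Aa 0.75 (rho 0.77), and Ciita and H2-Eb1 0.79 (rho 0.66). Cd74 had an r of 0.49 with H2-Ab1 (rho 0.14) and -0.25 with Ciita (rho -0.37). These values describe 6 libraries of 2 groups, so a difference between groups enters them. Among 8357 genes of at least 10 CPM outside the list, those most like the mean profile of H2-Aa, H2-Ab1, H2-Eb1 and Cd74 were Tlnrd1 (r = 0.98), Pcif1 (0.98), Eef1d (0.96), Fancl (0.95) and Zscan21 (0.95). Those most like Ciita were Mcoln1, Vps39, Ythdc2, Meaf6 and Dnm2, each with an r of 0.99. These are a description over 6 libraries, with no test.

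Upstream of Ciita, the 10 listed genes carry the IFN-γ signal or, as Socs1 does, restrain it. This list, like the others, was chosen with earlier results of these data known, so its shares are a description. Log2 fold changes were negative in 8 of the 10 (median -0.28), beside 51.3% of all genes tested. By edgeR 0 passed over all genes (4 at an unadjusted p under 0.05, all lower, beside 6.24% of all genes). A negative value of an inhibitor is thus counted with those of the carriers. Every IGF-1 library lay below every control library for 5 of the 10, beside 9.17% of all genes, among them Ifngr2, Jak2, Irf1 and Socs1. The signalling chain of the receptor, Ifngr2, was at 22.6, 22.8 and 24.3 CPM with IGF-1, against 43.7, 37.0 and 33.4 CPM in controls (log2 fold change -0.71, SE 0.16, adjusted p = 0.105). Irf1, a transcription factor that acts on the IFN-γ-responsive Ciita promoter, was at 526, 574 and 583 CPM with IGF-1, against 730, 753 and 764 CPM in controls (log2 fold change -0.42, SE 0.11, adjusted p = 0.142). Socs1, a feedback inhibitor of JAK kinases, was at 112, 101 and 86.8 CPM with IGF-1, against 172, 146 and 145 CPM in controls (log2 fold change -0.63, SE 0.14, adjusted p = 0.0938). Of the 14 alternative settings, Socs1 passed in 4 (DESeq2, DESeq2 with the replicate block, edgeR with no filter and edgeR with the stricter filter), and its adjusted p ranged from 0.00152 to 0.327 over the 14. Ifngr2 passed in 3 (both DESeq2 fits and no filter, range 0.00926 to 0.376) and Irf1 in 2 (both DESeq2 fits, range 0.00699 to 0.500). Each of the 3 genes passed in 0 of the 6 fits that leave out a library. Over all 13483 genes DESeq2 called 456 (368 with the block), beside 67 by edgeR as fitted here. With no filter edgeR called 429 of 23260 genes, and with the stricter filter 178 of 8625. The receptor's binding chain Ifngr1 overlapped between groups (log2 fold change -0.21, SE 0.15, adjusted p = 0.660).

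The factors on which CIITA docks showed no call by edgeR. Of the 8 genes of the promoter list, Ciita included, 2 were positive and 6 negative (median -0.09), and 0 passed. At an unadjusted p under 0.05 the count was 1, Ciita itself, beside 6.24% of all genes lower. The subunit gene Rfx5 averaged 5.41 ± 1.43 CPM with IGF-1 and 5.84 ± 0.35 CPM in controls (log2 fold change -0.11, SE 0.32, adjusted p = 0.940). Rfxap was at -0.24 (SE 0.22), Nfya at -0.28 (SE 0.30) and Nfyb at 0.26 (SE 0.15) on the log2 scale, each with an adjusted p above that of Ciita. Of 9 chromatin factors 3 were positive and 6 negative (median -0.06) and 0 passed by edgeR. At an unadjusted p under 0.05 the count was 2, both lower, beside 6.24% of all genes. These 2, the acetyltransferase gene Crebbp (log2 fold change -0.35, SE 0.12) and the methyltransferase gene Ezh2 (-0.56, SE 0.19), had no overlap between groups. Every IGF-1 library lay below every control library for 9.17% of all genes. Hdac1 was at 0.15 (SE 0.13). Ezh2 passed in 1 of the 14 alternative settings, edgeR with no filter (adjusted p 0.0364 to 0.611 over the 14). Of 6 genes listed as repressors of class II or Ciita 4 were positive, and 0 passed by edgeR. At an unadjusted p under 0.05 the count was 1, beside 11.8% of all genes in either direction. Among them Id2 was at 2565, 2719 and 2262 CPM with IGF-1, against 1896, 2032 and 1866 CPM in controls (log2 fold change 0.38, SE 0.11, adjusted p = 0.175). Id2 passed in 1 of the 14 settings, DESeq2 (adjusted p 0.0353 to 0.575). Bcl6 (log2 fold change 0.35, SE 0.35) and the very low Zbtb32 (2.17, SE 1.06, 19, 23 and 14 counts with IGF-1 and 5, 1 and 6 in controls) were the others with the smallest p.

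Of 9 genes for the invariant chain and the enzymes that cut it or prepare antigen, 7 were positive and 2 negative (median 0.06). By edgeR and by DESeq2 0 passed. At an unadjusted p under 0.05 edgeR gave 1, lower, beside 6.24% of all genes. Cathepsin S (Ctss), the protease that makes the last cuts in CD74, was at 175, 148 and 122 CPM with IGF-1, against 174, 143 and 114 CPM in controls, with overlapping groups (log2 fold change 0.04, SE 0.18). It was named after its values were seen. Cathepsin L (Ctsl) was at 27.7, 32.9 and 29.8 CPM with IGF-1, against 37.2, 39.4 and 42.5 CPM in controls, with no overlap (log2 fold change -0.40, SE 0.15, adjusted p = 0.309). It was the 1 of the 9 with no overlap in the lower direction, beside 9.17% of all genes. The thiol reductase Ifi30 (0.50, SE 0.24) and cathepsin B (Ctsb, 0.29, SE 0.20) had positive log2 fold changes. Of 13 trafficking and turnover genes 5 were positive and 8 negative (median -0.06), and 0 passed by edgeR or by DESeq2. At an unadjusted p under 0.05 edgeR gave 2, both lower, beside 6.24% of all genes. Marchf8, a ubiquitin ligase that can remove class II from the surface in some cells, was at -0.46 (SE 0.20, adjusted p = 0.400), Plekhm2 at -0.58 (SE 0.22) and Ctsa at -0.24 (SE 0.14) on the log2 scale.

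**Figure D4:**
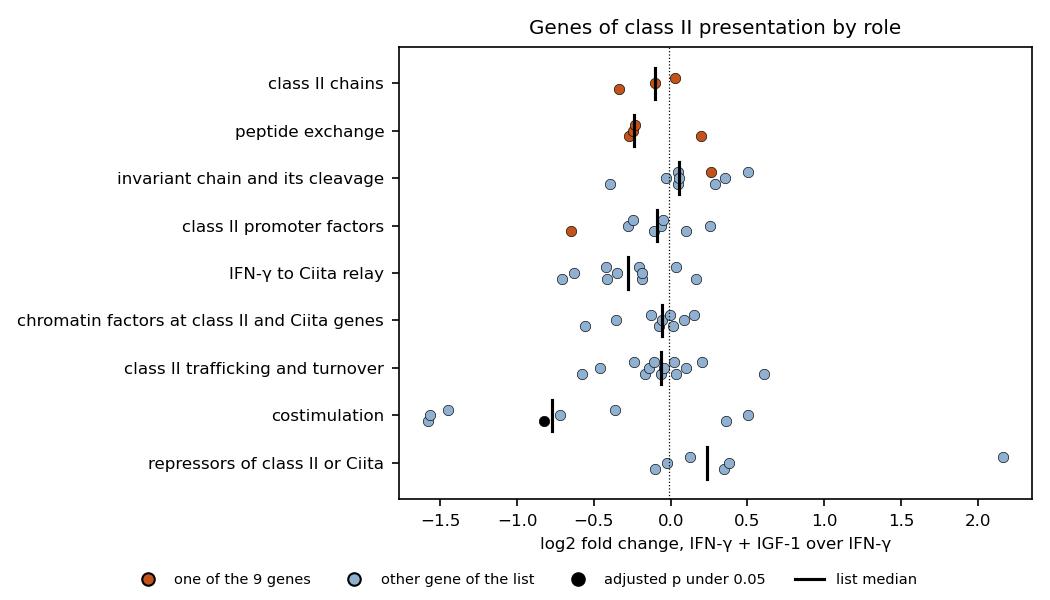
Log2 fold change with IGF-1 against control (horizontal axis) for each tested gene (point), by role in class II presentation; bars are list medians and the dotted line the median of all genes tested (-0.01). The IFN-γ relay, which includes the inhibitor Socs1, has 8 of 10 genes below 0. The black point, Cd274 at -0.82, is the gene that passed an adjusted p under 0.05 by edgeR.

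Costimulatory molecules shape how a T cell responds to a class II complex. Of 8 listed genes, the receptor gene Cd40 included, 2 were positive and 6 negative (median log2 fold change -0.77). The lowest values came from genes with few counts, Tnfsf18 (-1.58, SE 0.78), Cd86 (-1.57, SE 1.29) and Cd80 (-1.45, SE 1.09), and they pull this median down. Of the 8, 1 passed in the lower direction, where 0.267% of all genes did, and 0 in the higher. The gene that fell was Cd274, which encodes the inhibitory ligand PD-L1, at 105, 95.5 and 108 CPM with IGF-1, against 169.9, 184 and 193 CPM in controls (log2 fold change -0.82, SE 0.12, adjusted p = 0.0222). Its call held in 1 of the 6 fits that leave out a library (adjusted p from 0.0327 to 0.144). Cd40 was at 14.0, 17.3 and 13.1 CPM with IGF-1, against 12.3, 9.90 and 9.03 CPM in controls (log2 fold change 0.51, SE 0.23, adjusted p = 0.428). Tnfsf4, encoding OX40 ligand, had a log2 fold change of -0.72 (SE 0.28, adjusted p = 0.336). The classical ligands Cd80 and Cd86 were low throughout, Cd80 with 15, 19 and 14 counts with IGF-1 against 2, 63 and 60 in controls, and Cd86 with 0, 5 and 43 counts with IGF-1 against 57, 20 and 62 in controls. They and Tnfsf18 are named after their values were seen. Over the 64 pathway genes other than the 9, 61 were tested, 24 were positive and 37 negative, and 1, Cd274, passed by edgeR as fitted here. DESeq2 called 5 of the 61, adding Socs1, Ifngr2, Irf1 and Id2, beside 456 of all 13483 genes. With no filter edgeR called 4, adding Socs1, Ifngr2 and Ezh2, beside 429 of all 23260 genes.

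Other cells that carry class II were checked by their markers. The sorted cells expressed Kit, Thy1 and Il7r, and the summed level of the ILC3 and gate markers was 3138 to 3426 CPM with IGF-1 and 3049 to 3317 CPM in controls. Among B cell markers Ms4a1 had no count in any library. Jchain, a gene of plasma cells, was at 519 CPM in control replicate 3 (18629 counts) and at 0.103 to 0.209 CPM in the other 5 libraries. Without Jchain the B cell and plasma cell markers summed to 51.6 to 63.7 CPM with IGF-1 and 35.4 to 55.4 CPM in controls, mostly from Cd79b and Ighm. Control replicate 3 held the lowest control value of H2-Ab1, H2-Eb1, H2-DMa, H2-DMb1 and H2-DMb2. Without it 0 of the 9 genes passed by edgeR, beside 2 of all 14010 genes tested in that fit. Ciita was then at -0.66 (adjusted p = 0.574) and H2-Ab1 at -0.20 on the log2 scale.

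Dendritic cell markers summed to 36.3 to 38.6 CPM with IGF-1 and 47.6 to 54.7 CPM in controls, with no overlap, and 6 to 8 of 10 had a count in each library. Most of the sum was Batf3 and Zbtb46, while Cd209a had no count and Itgax and Clec9a were below 0.3 CPM in every library. Macrophage and monocyte markers summed to 19.8 to 27.9 CPM with IGF-1 and 17.5 to 21.3 CPM in controls, mostly from Cd68, with Cx3cr1 below 0.1 CPM throughout. Epithelial markers, of which Epcam made up most, summed to 19.3 to 27.2 CPM with IGF-1 and 40.3 to 55.1 CPM in controls. Lgals4 came next, with means of 4.69 CPM with IGF-1 and 6.58 CPM in controls. Krt20, Cdh1 and Fabp2 were below 0.3 CPM in every library, and Alpi had no count. Epcam fell, at 21.1, 14.6 and 17.0 CPM with IGF-1, against 45.6, 38.7 and 31.6 CPM in controls (log2 fold change -1.13, SE 0.20, adjusted p = 0.0442). Its call held in 0 of the 6 fits that leave out a library (adjusted p from 0.0783 to 0.239). T cell and ILC2 sums overlapped between groups, at 601 to 793 CPM with IGF-1 and 647 to 844 CPM in controls for T cells, and at 74.7 to 109 CPM and 99.9 to 113 CPM for ILC2s. Nearly all of the T cell sum was Trbc2, at 582 to 771 CPM with IGF-1 and 638 to 829 CPM in controls. Cd3g averaged 13.3 CPM with IGF-1 and 9.01 CPM in controls, and Cd3d 4.88 and 2.35 CPM. Gata3 made up most of the ILC2 sum. The part of the dendritic cell and epithelial markers in the Ciita values was not tested.

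Class II on ILC3s is known to be highest on the CCR6+ lymphoid tissue inducer (LTi)-like subset and low on the NCR+ subset. Markers of the CCR6+ subset summed to 234, 255 and 236 CPM with IGF-1, against 315, 338 and 319 CPM in controls, with no overlap. Slc6a20a gave much of this difference, at 58.7, 46.3 and 68.7 CPM with IGF-1 and 111, 115 and 117 CPM in controls (log2 fold change -0.98, SE 0.15, adjusted p = 0.0298), and its call held in 2 of the 6 fits that leave out a library. Without it the sums overlapped, at 175, 209 and 167 CPM with IGF-1 and 204, 223 and 202 CPM in controls. Ccr6 itself overlapped between groups, at 2.16, 6.47 and 4.41 CPM with IGF-1 and 4.59, 2.54 and 2.59 CPM in controls. Cd4 (log2 fold change -0.52, SE 0.18, adjusted p = 0.286) and Nrp1 (-0.58, SE 0.26, adjusted p = 0.426) were lower with no overlap. With Slc6a20a, 3 of the 8 genes were so, beside 9.17% of all genes. Of the 8, 5 were negative and 3 positive, Ccr6 (0.42, SE 0.49), Il17f (0.59, SE 0.42) and Il17a (0.17, SE 1.55). Markers of the NCR+ subset and ILC1s summed to 250 to 268 CPM with IGF-1 and 202 to 285 CPM in controls. Among them Ncr1, the gene of the receptor that names the subset, rose, at 68.4, 66.9 and 79.1 CPM with IGF-1, against 29.5, 27.8 and 27.4 CPM in controls (log2 fold change 1.34, SE 0.14, adjusted p = 0.00903). Its call held in 3 of the 6 fits that leave out a library (adjusted p from 0.0191 to 0.0718). Of the 7 genes of this list 3 were positive and 4 negative (median log2 fold change -0.18). The negative ones included the abundant Cxcr3 (-0.20, SE 0.16) and Klrb1c (-0.32, SE 0.17), both with overlapping groups. The part of the subset markers in the Ciita and H2-Eb1 values was not tested.

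**Figure D5:**
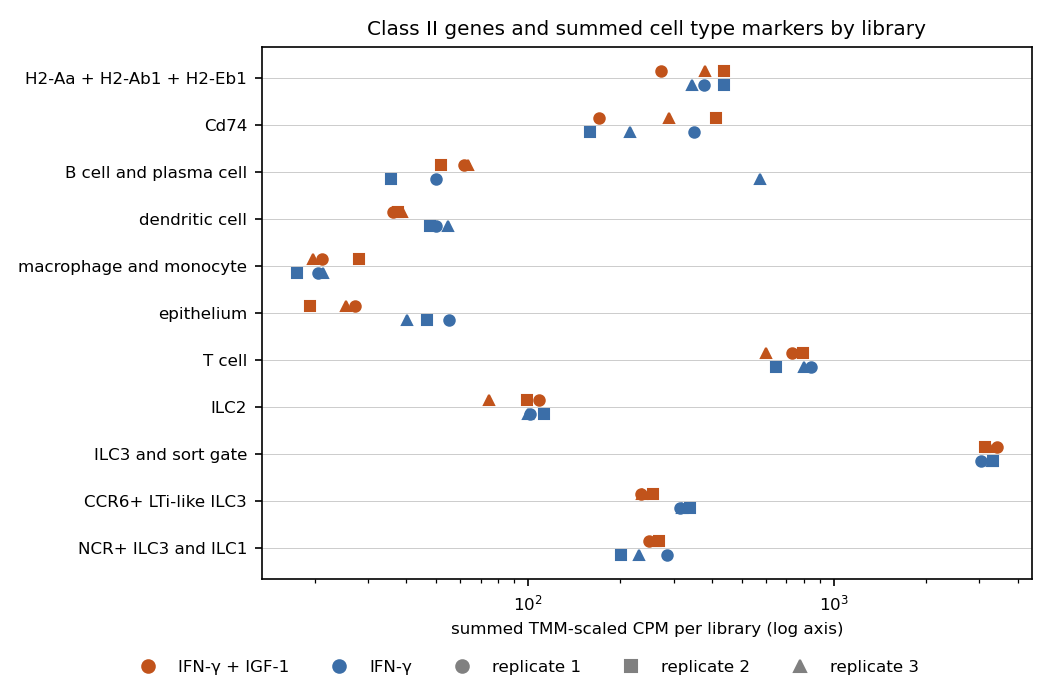
Summed TMM-scaled CPM per library (horizontal log axis) of the 3 class II chain genes, of Cd74 and of marker lists for other cell types and ILC3 subsets; the upper row of each pair is IFN-γ plus IGF-1, the lower IFN-γ alone, and symbols mark replicates. The CCR6+ markers are 234 to 255 CPM with IGF-1 and 315 to 338 CPM in controls, and control replicate 3 stands apart in the plasma cell markers.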

How the data were processed

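The authors deposited raw counts per gene symbol. The submitters' processing notes list featureCounts 1.5.3, SAMtools 1.15.1, HISAT2 2.2.1 and fastp 0.23.2, and the build GRCm39. The role of each tool, the annotation release, any strand setting and the handling of multi-mapping reads were not given in the sources used here. Per the labels' protocols, library preparation used the SMART-Seq HT kit. Libraries were grouped by title.

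Genes were kept by filterByExpr (minimum count 10, minimum total 15), which left 13483 genes. The test was that of edgeR 4.0.16 under R 4.3.3 (TMM, glmQLFit, glmQLFTest, group as the only term). The SE is the log2 fold change divided by the square root of F. The functions were checked on simulated counts. Alternatives used DESeq2 1.42.0 and limma 3.58.1, other scalings and filters, a replicate block and each library left out. Transcript lengths and identity come from GENCODE M21 and promoter windows from RefSeq, both on GRCm38, which differs from the counts' build. Libraries of a group differed by far more than sampling noise (chi-square per degree of freedom at least 37.0). Counts from PCR reads are not independent molecules. An exact permutation test of 3 against 3 cannot go below p = 0.1.

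The 9 genes and all lists were chosen with earlier results of these data known. The naming rule took the 9 genes, 8 further genes fixed by name, up to 3 genes of smallest p per pathway list and the 3 most abundant and any without counts per marker list, and the 5 genes most like each of 2 profiles. The values of some listed genes are not reported here.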

Additional observations from a re-analysis of the deposited data

How the results depend on the processing

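Each of the 14 alternatives called 0 of the 9 genes. Ciita, H2-Eb1, H2-DMa, H2-DMb1 and H2-Oa kept a negative log2 fold change in all that could be fitted. The stricter filter left 6 of the 9 in the test. The sign turned for H2-Aa with library size scaling (-0.0090). Over the fits that leave out 1 library, H2-Aa ranged from -0.17 to 0.16, H2-Ab1 from -0.25 to 0.082, H2-DMb2 from -0.12 to 0.45, Cd74 from -0.077 to 0.63 and Rfx5 from -0.34 to 0.038. The cause was not tested.

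Over all genes, 31 were called higher and 36 lower. These counts were 3 and 5 with the replicate block, 200 and 256 with DESeq2, 151 and 217 with DESeq2 and the block, 171 and 258 with no filter, and 63 and 115 with the stricter filter. By limma-voom 60 were lower. Leaving out a library gave 0 to 24 higher and 0 to 31 lower. The sources used here name no pairing, so the replicate numbers were not taken as pairs. Deviations of same-numbered libraries from their group means correlated at -0.05, 0.00 and 0.06 across genes, which cannot exclude pairing. With the replicate block Ciita was at -0.66 (adjusted p = 0.304). Low counts limit H2-DMb2 and H2-Oa, whose 95% intervals span over 1.5 log2 units.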
